A study of Mus musculus with 22 samples.

Results

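The transcripts of the mitochondrial genome were examined in skin, in cultured MC38 colon carcinoma cells and in the tumors that these cells formed in mice with and without adaptive immunity. The members were all genes whose symbol starts with mt-, which gave 37 of the 46882 genes in the table. They were 13 protein-coding genes, 2 rRNA genes and 22 tRNA genes. The annotation (GENCODE release M21, GRCm38, chromosome M) placed 28 of them on the plus strand, as parts of the heavy-strand transcript, and 9 on the minus strand, as parts of the light-strand transcript (mt-Nd6 and 8 tRNA genes). Of the 37 genes, 30 had a read in at least 1 of 16 libraries.

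MC38 cells come from a C57BL/6 colon tumor and were placed under the skin of female mice aged 8 to 12 weeks. The hosts were wild-type C57BL/6N mice or RAG1-/- mice (B6.129S7-Rag1tm1Mom/J), which make no mature T or B cells. Wild-type tumors were taken at day 23 and day 46 and RAG1-/- tumors at day 13 and day 23, with 3 tumors in each of the 4 groups. The other groups were MC38 cells at day 0 (2 libraries) and wild-type skin at day 23 (2 libraries). No source says that the MC38 libraries came from separate cultures, so p-values against them measure only the spread between these samples, which may be technical. All 12 tumors descend from 1 cell line, and RNA came from a piece of whole tumor, so cancer and host cells were mixed. In such bulk samples fewer cells of a type cannot be told apart from less RNA per cell.

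The mitochondrial genome is a small circle that codes for core subunits of the respiratory chain and of ATP synthase, and for the rRNAs and tRNAs with which mitochondria translate them. Each strand is transcribed as a long RNA that is cut mainly at the tRNAs between the genes, after which the rRNAs and most mRNAs receive short poly(A) tails. The nucleus also holds old copies of mitochondrial DNA, some of them nearly identical in sequence.

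The libraries were made with the QuantSeq 3′ method, which primes with oligo(dT) and reads near the 3′ end, and were sequenced on an Ion Proton. The deposited normalized counts could be turned back into whole reads, and each library held between 5589151 and 26134241 reads on genes. T cell markers summed to between 1.11 and 16.2 normalized counts in RAG1-/- tumors and between 36.7 and 153 in wild-type tumors, and keratinocyte markers to at least 274595 in skin against at most 1640 in the tumors. Rag1 had between 1 and 12 reads in each RAG1-/- library and 0 or 1 in every other library. Where these reads lie relative to the disrupted part of the gene was not tested, so Rag1 did not check the labels.

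Reads were spread very unevenly over the mitochondrial genes. mt-Rnr2, the 16S rRNA of the large subunit of the mitochondrial ribosome, took 50.6% of all mitochondrial reads and had the most reads of all 46882 genes. mt-Rnr1, the 12S rRNA of the small subunit, took 16.01%. mt-Cytb, a subunit of complex III, took 11.3%, and the complex I subunits mt-Nd1, mt-Nd4, mt-Nd2 and mt-Nd5 took 9.90%, 6.14%, 3.93% and 1.31%. mt-Co1, the catalytic subunit of complex IV, took 0.810%. The 22 tRNA genes together took at most 0.00742% of the reads of a library.

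Per base of gene length, summed over the 16 libraries, mt-Rnr2 had 5381 reads, mt-Rnr1 2821, mt-Nd1 1742, mt-Cytb 1659, mt-Nd4 749, mt-Nd2 637, mt-Nd5 121 and mt-Co1 88.3. A method that reads near the 3′ end gives no more than a rough order on this scale, because few reads come from the rest of a gene. The other 7 protein-coding genes lay far lower. mt-Nd3 had 1.87 reads per base and mt-Nd6, the light-strand protein gene, 0.615. mt-Co2, mt-Atp6, mt-Co3 and mt-Atp8 had 0.0687, 0.0441, 0.0128 and 0.0098 reads per base, and mt-Nd4l had no read in any library. mt-Co2, mt-Atp8, mt-Atp6, mt-Co3, mt-Nd3 and mt-Nd4l code for subunits of complex IV, ATP synthase and complex I, and lie side by side between mt-Co1 and mt-Nd4. Of the 5 tRNA genes among them, mt-Ts1, mt-Td, mt-Tk and mt-Tg had no read and mt-Tr had 3. A count of 0 allows up to 3 reads, which is between 1.33 and 6.38 normalized counts depending on the library.

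**Figure D1:**
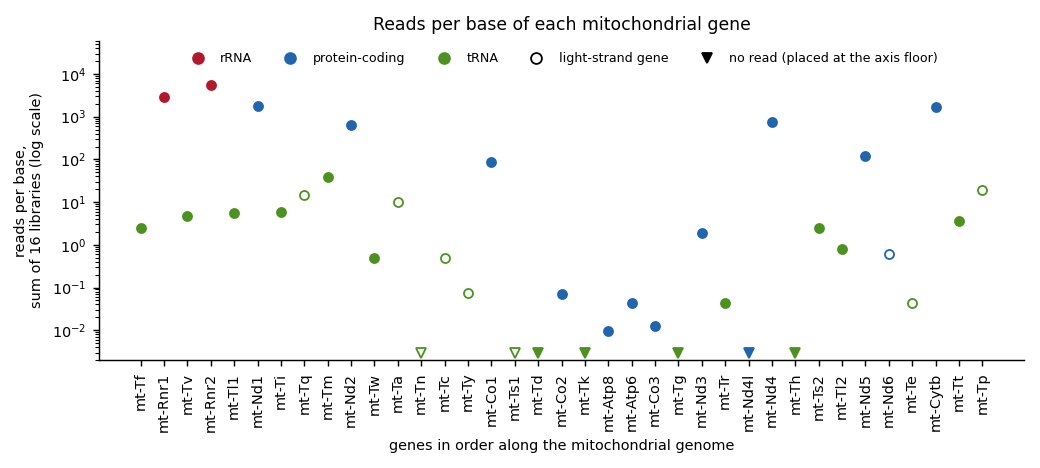
Reads per base of gene length, summed over 16 libraries (log axis), for the 37 mitochondrial genes in their order along the genome; open symbols are light-strand genes and triangles are genes without a read. From mt-Ts1 to mt-Nd4l no gene exceeds the 1.87 of mt-Nd3, with mt-Co1 at 88.3 and mt-Nd4 at 749 on either side.

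The little-read stretch has annotated copies in the nucleus. A BLAST search of the member transcripts against all other annotated transcripts, with at least 90% identity over at least 200 bases, gave 15 matches that covered 11 of the protein-coding genes. On the minus strand of chromosome 1, between 24611535 and 24616197, lie pseudogenes that match mt-Co2 over 681 bases, mt-Atp6 over 678, mt-Co3 over 783, mt-Nd4l over 294 and the first 876 bases of mt-Nd4, all with 0 mismatches. The same run holds Gm28438, which matches mt-Nd3 over 345 bases with 1 mismatch, and Gm29216, which matches the last 483 bases of mt-Co1 with 1 mismatch. The end of mt-Co2 and the start of mt-Nd3 are shown beside their copies to show how alike they are. Capitals mark the base that differs, T3C, with the base of mt-Nd3 first and positions counted from its first base.
mt-Co2, bases 622 to 681 (GRCm38 chrM:7634-7693, plus strand): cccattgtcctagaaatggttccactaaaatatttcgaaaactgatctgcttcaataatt
Gm28661, bases 622 to 681 (GRCm38 chr1:24614885-24614944, minus strand): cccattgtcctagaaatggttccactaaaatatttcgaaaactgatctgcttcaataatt
mt-Nd3, bases 1 to 60 (GRCm38 chrM:9459-9518, plus strand): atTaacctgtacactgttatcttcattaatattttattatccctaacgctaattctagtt
Gm28438, bases 1 to 60 (GRCm38 chr1:24613060-24613119, minus strand): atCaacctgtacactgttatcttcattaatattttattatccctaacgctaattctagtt

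Gm28438 was read in every library, at 219 to 2502 normalized counts, where mt-Nd3 had 14.7 to 95.8. The other copies on chromosome 1 (Gm28661, Gm10925, Gm28437, Gm10222, Gm28439 and Gm29216) had at most 12.7 normalized counts in any library. Summed over the 16 libraries, mt-Co2 and Gm28661 had 47 and 42 reads, mt-Atp6 and Gm10925 30 and 62, and mt-Co3 and Gm28437 10 and 73. mt-Nd4l and Gm10222 had 0 and 1, so in these pairs gene and copy were both little read. By contrast, mt-Nd3 and Gm28438 had 651 and 17762, mt-Co1 had 136407 and mt-Nd4 1032809. Among the less similar copies, Gm13341 on chromosome 2, 95.9% identical to mt-Co2 and named after its values were seen, had 266 to 671 normalized counts, where mt-Co2 had at most 14.9. The authors kept the primary alignment of reads with several positions, but how the counting treated such reads is not given. A read from an identical stretch may thus be listed under either copy or left out. The values of mt-Co2, mt-Atp6, mt-Co3, mt-Nd4l and mt-Nd3, and those of the copied stretches of mt-Nd4 and mt-Co1, are uncertain for this reason. Low counts of these genes do not show that their RNA was scarce, and the part of the copies in them was not tested.

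The members also differed in their longest run of A, to which an oligo(dT) primer can bind inside an RNA. Of the 15 rRNA and protein-coding genes, 6 had a run of 6 or more (mt-Rnr2, mt-Nd1, mt-Nd2, mt-Co1, mt-Nd4 and mt-Nd5) and had 88.3 to 5381 reads per base, with a median of 693. The other 9 had runs of at most 5 and a median of 0.0687 reads per base, although mt-Rnr1 and mt-Cytb were among them. Among the tRNA genes mt-Tr had a run of 8 and 3 reads, and mt-Th a run of 6 and no read, so a long run did not go with many reads throughout. This split was made after the values were seen and carries no test. The 9 genes include mt-Co2, mt-Atp6, mt-Co3, mt-Nd3 and mt-Nd4l, whose values are uncertain because of their nuclear copies. Where in a gene the reads lay was not examined. The longest runs of 3 much-read genes and the first of the longest runs of mt-Co2 are shown with 20 bases on each side, the run in capitals.
mt-Rnr2, bases 375 to 421 (GRCm38 chrM:1468-1514, plus strand): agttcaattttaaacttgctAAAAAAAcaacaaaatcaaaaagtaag
mt-Nd2, bases 119 to 166 (GRCm38 chrM:4032-4079, plus strand): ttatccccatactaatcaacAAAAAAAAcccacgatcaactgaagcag
mt-Co1, bases 769 to 815 (GRCm38 chrM:6096-6142, plus strand): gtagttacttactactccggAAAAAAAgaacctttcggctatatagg
mt-Co2, bases 124 to 167 (GRCm38 chrM:7136-7179, plus strand): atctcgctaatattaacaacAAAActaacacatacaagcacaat

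The mitochondrial share of a library ranged from 5.54% to 11.3% of its reads on genes. It was 8.52% and 11.3% in skin and 8.48% and 7.86% in MC38 cells. RAG1-/- tumors held 5.83%, 5.58% and 6.30% at day 13 and 11.2%, 11.1% and 10.1% at day 23. Wild-type tumors held 6.12%, 10.2% and 7.23% at day 23 and 10.4%, 7.56% and 5.54% at day 46. The Wilson 95% interval of a share was narrow (5.81% to 5.84% for the first RAG1-/- tumor of day 13). It covers the sampling of reads only, not the spread between samples. The reads carry no molecular identifiers, so reads copied from the same molecule are counted apart and the interval may be too narrow.

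**Figure D2:**
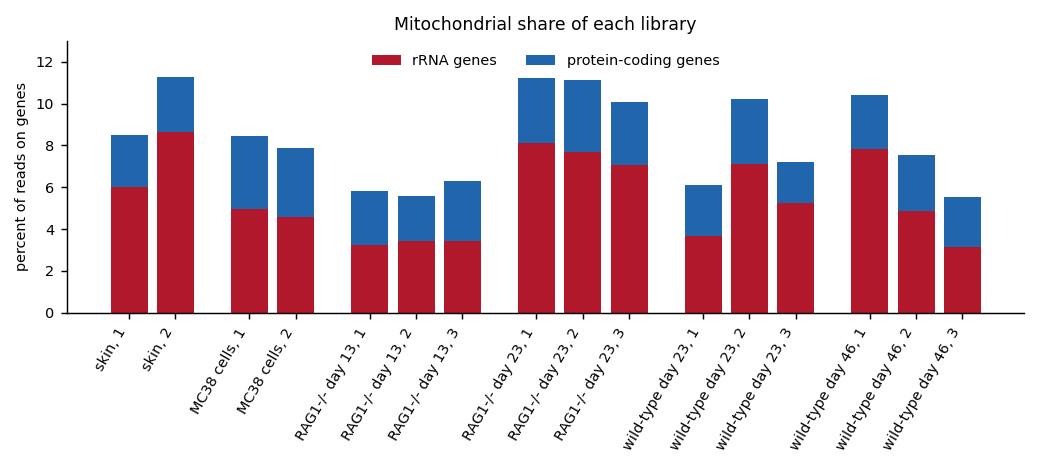
Percent of the reads on genes that fell on mitochondrial rRNA genes (red) and protein-coding genes (blue) in each of the 16 libraries; tRNA genes are too small to draw. The 3 RAG1-/- tumors of day 23 lie between 10.1% and 11.2% and the 3 of day 13 between 5.58% and 6.30%, while the wild-type tumors of both days spread from 5.54% to 10.4%.

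The RAG1-/- tumors of day 23 and day 13 did not overlap in mitochondrial share. On day 23 they averaged 10.8% ± 0.66 and on day 13 5.90% ± 0.37 (SD over 3 tumors each). The two-sided exact permutation test gave p = 0.1, the smallest value that 3 against 3 libraries allow, and adjusted p = 0.593 over the 32 comparisons of shares and ratios, so the difference did not pass. Most of it lay in the rRNAs, which took 7.63% ± 0.54 of the reads at day 23 and 3.38% ± 0.10 at day 13. The protein-coding genes took 3.18% ± 0.23 and 2.52% ± 0.35. There were 2.61, 2.24 and 2.35 rRNA reads per protein-coding read at day 23 and 1.27, 1.59 and 1.21 at day 13, again without overlap (exact permutation p = 0.1, adjusted p = 0.593).

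By gene, limma called 0 of the 19 tested members between these days, and none of the 14746 genes tested (0% higher and 0% lower). At an unadjusted p under 0.05 there were 6 members, all higher at day 23, beside 5.54% of all genes higher and 6.14% lower. edgeR called 0 members, and 0% of all genes in either direction. DESeq2 called 4, all higher at day 23, beside 0.605% of 14717 genes higher and 0.795% lower. In 7 members all tumors of day 23 lay above all of day 13, and in 0 below, where 9.48% of all genes tested were higher in this way and 9.92% lower.

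mt-Rnr2 measured 751525, 697663 and 639501 normalized counts at day 23 and 260039, 282362 and 296504 at day 13, a log2 difference of 1.31 (SE 0.37, limma adjusted p = 0.223, DESeq2 adjusted p = 0.0038). mt-Rnr1 measured 226807, 217920 and 174868 at day 23 and 92305, 89934 and 83653 at day 13, a log2 difference of 1.21 (SE 0.36, limma adjusted p = 0.246, DESeq2 adjusted p = 0.019). Both rRNAs were thus more than 1 log2 unit apart between the days in their means, with every tumor on its own side. mt-Nd2, a complex I subunit, measured 58453, 55788 and 38443 normalized counts at day 23 and 25444, 21152 and 20985 at day 13 (log2 difference 1.16, SE 0.28, limma adjusted p = 0.172, DESeq2 adjusted p = 0.0056). mt-Nd5, another complex I subunit, had a log2 difference of 1.03 (SE 0.24, limma adjusted p = 0.167, DESeq2 adjusted p = 0.0081), with at least 15429 normalized counts at day 23 and at most 9075 at day 13.

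The remaining protein-coding genes had smaller differences, in both directions. mt-Nd4 and mt-Co1 had log2 differences of 0.82 (SE 0.26, limma adjusted p = 0.265) and 0.51 (SE 0.21, limma adjusted p = 0.372), and mt-Nd1 had 0.24 (SE 0.22, limma adjusted p = 0.718), none of them with overlap between the days. mt-Cytb did overlap, with a log2 difference of 0.22 (SE 0.25, limma adjusted p = 0.784). mt-Nd6 also overlapped and pointed the other way, at -0.57 (SE 0.44, limma adjusted p = 0.654). Of the 9 tRNA genes tested, 1 had a positive difference (mt-Ti, 0.04), 8 had a negative one, and all 9 overlapped between the days. mt-Tl1, which carries leucine, was at -1.35 (SE 0.67, limma adjusted p = 0.453) and mt-Tp at -0.78 (SE 0.44, limma adjusted p = 0.512). mt-Ts2, which carries serine, was at -1.31 (SE 0.82, limma adjusted p = 0.564) and averaged 4.80 normalized counts at day 23. No tRNA gene passed in either direction. Leaving out any of the 6 tumors kept the direction of these differences for mt-Rnr1, mt-Rnr2, mt-Nd1, mt-Nd2, mt-Nd4, mt-Nd5 and mt-Co1. Skeletal muscle markers (8 genes, all above 0 in each tumor of day 13) summed to 375 to 9264 normalized counts at day 13 and 51.1 to 81.2 at day 23. Red cell markers summed to 1582 to 1915 at day 13 and 4049 to 9603 at day 23. The part of either in the result was not tested.

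**Figure D3:**
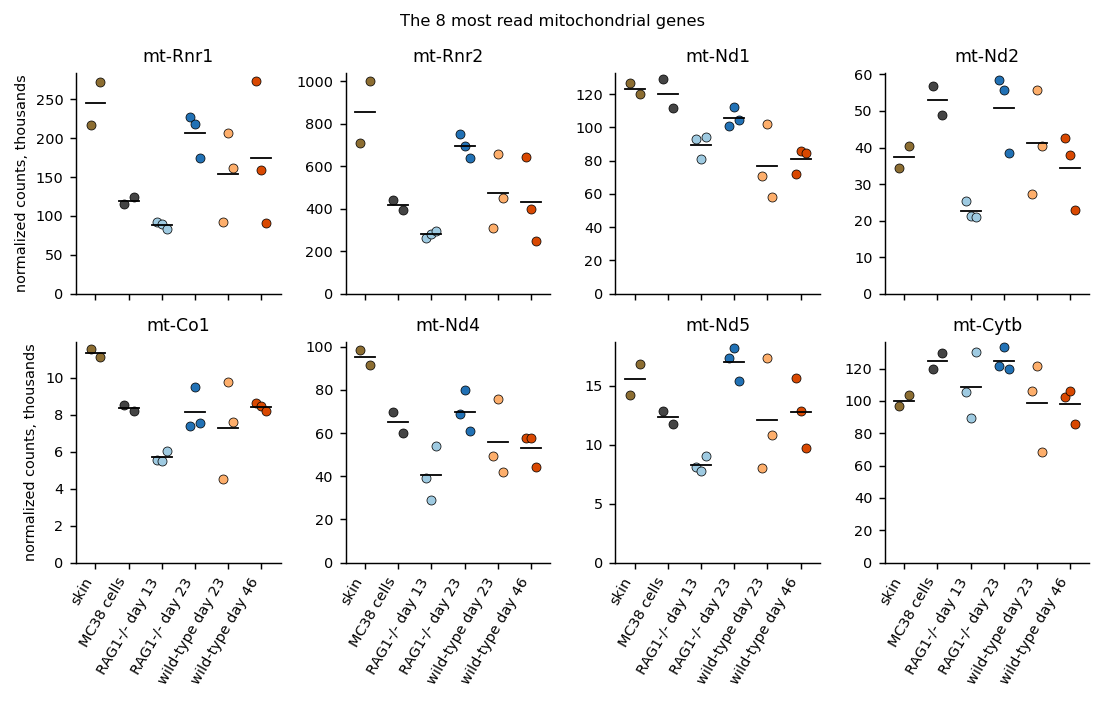
Normalized counts (axis in units of 1000) of the 8 most read mitochondrial genes, with 1 point per library and a line at each group mean. In mt-Rnr1, mt-Rnr2, mt-Nd2 and mt-Nd5 the 3 RAG1-/- tumors of day 23 lie above the 3 of day 13, whereas mt-Cytb overlaps between these days.

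Wild-type tumors did not separate by day. Day 46 averaged 7.83% ± 2.44 and day 23 7.86% ± 2.13 (SD over 3 tumors each, exact permutation p = 1, adjusted p = 1). mt-Rnr2 ranged from 249027 to 642173 normalized counts at day 46 and from 309197 to 659146 at day 23 (log2 difference -0.17, SE 0.37, limma adjusted p = 0.924). limma called 0 of 19 members, and 0% of all genes in either direction. At an unadjusted p under 0.05 there were 2 members, mt-Ta and mt-Tv, both lower at day 46, beside 4.65% of all genes higher and 3.9% lower. edgeR called 0 members and 0% of all genes, and DESeq2 called 0 members beside 0.196% of all genes higher and 0.128% lower. The tumors did not overlap in 3 members, the tRNA genes mt-Ta, mt-Tv and mt-Tf, all lower at day 46, where 5.44% of all genes tested were lower in this way and 7.02% higher.

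The comparison of wild-type with RAG1-/- tumors is between hosts with and without mature T and B cells. The hosts also differ in strain, as given above, which cannot be told apart here from the lack of these cells. Over both days of each host, the share was 7.85% ± 2.05 in wild-type and 8.35% ± 2.73 in RAG1-/- tumors (SD, n = 6 each, exact permutation p = 0.820, adjusted p = 0.972), and the days pooled are not the same in the hosts. limma called 0 of 19 members, beside 0.57% of all genes higher in wild-type tumors and 0.142% lower, with 1 member, mt-Tp, lower at an unadjusted p under 0.05, beside 6.64% of all genes higher and 4.77% lower. edgeR called 0 members beside 0.597% of all genes higher and 0.156% lower, and DESeq2 0 beside 1.32% and 0.612%. No member was without overlap between the hosts, where 0.651% of all genes were higher in this way and 0.332% lower.

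At day 23, the day that the hosts share, wild-type tumors had a mean share of 7.86% ± 2.13 and RAG1-/- tumors of 10.8% ± 0.66 (SD, n = 3 each, exact permutation p = 0.2, adjusted p = 0.593). The second wild-type tumor, at 10.2%, lay among the RAG1-/- tumors. limma called 0 of 19 members, beside 0.231% of all genes higher and 0.0475% lower. edgeR called 0 members beside 0.115% higher and 0.0339% lower, and DESeq2 0 beside 1.07% and 0.55%. At an unadjusted p under 0.05 there were 3 members, beside 6.36% of all genes higher and 4.8% lower. These were mt-Nd1 (log2 difference -0.50, limma adjusted p = 0.431), mt-Nd5 (-0.57, limma adjusted p = 0.391) and the leucine tRNA mt-Tl1 (1.44, limma adjusted p = 0.445). mt-Nd6 and mt-Tv were higher in all 3 wild-type tumors, as were 8.5% of all genes, and no member was lower in all 3, as were 7.62%. mt-Nd6, a complex I subunit, measured 17.7, 18.8 and 19.0 normalized counts in wild-type and 15.7, 8.51 and 11.05 in RAG1-/- tumors. These values rest on only 24, 22 and 12 reads in wild-type and 12, 4 and 25 in RAG1-/- tumors.

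MC38 cells had less mitochondrial rRNA than skin, by calls that were lost when single libraries were left out. mt-Rnr2 measured 439734 and 396218 normalized counts in MC38 cells and 710912 and 1000660 in skin, a log2 difference of -1.01 (SE 0.23, limma adjusted p = 0.016). mt-Rnr1 measured 115213 and 124093 in MC38 cells and 216575 and 272933 in skin (log2 difference -1.02, SE 0.18, limma adjusted p = 0.0063). The call of mt-Rnr2 was lost with any of the 4 libraries left out (limma adjusted p between 0.0715 and 0.797). That of mt-Rnr1 was lost without the first MC38 library and without either skin library (between 0.0595 and 0.344), and both were lost in a fit of all 16 libraries (0.0746 for mt-Rnr1 and 0.135 for mt-Rnr2). With a pseudocount of 0.1 and with a filter at a mean of at least 20, mt-Rnr2 lost its call too. Rescaling to equal totals, equal upper quartiles or equal reads outside the mitochondrial genes also removed it. There were 1.40 rRNA reads per protein-coding read in each MC38 library and 2.43 and 3.32 in the skin libraries, without overlap (exact permutation p = 0.333, the smallest that 2 against 2 libraries allow, adjusted p = 0.593). In all, limma called 2 of 21 tested members higher in MC38 cells and 7 lower, beside 20.8% of the 16780 genes tested higher and 41.2% lower. Leaving out any of the 4 libraries gave 3 called members, and a fit of all 16 libraries gave 4. Keratinocyte markers summed to at most 313 normalized counts in MC38 cells and skeletal muscle markers to 106318 to 154124 in skin against 44.5 to 57.7 in MC38 cells, and their part in these differences was not tested.

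The protein-coding genes with many reads had smaller differences between MC38 cells and skin than the rRNAs had, between -0.55 and 0.50 on the log2 scale. mt-Nd2 was higher in MC38 cells, at 56772 and 49000 normalized counts against 34292 and 40489 (log2 difference 0.50, SE 0.16, limma adjusted p = 0.041). mt-Nd4 was lower, at 69812 and 59988 against 98556 and 91618 (log2 difference -0.55, SE 0.15, limma adjusted p = 0.025), as was mt-Co1, at 8560 and 8211 against 11579 and 11140.5 (log2 difference -0.44, SE 0.11, limma adjusted p = 0.021). Each of these 3 calls was lost with any of the 4 libraries left out (limma adjusted p between 0.0628 and 0.363). mt-Nd2 and mt-Nd4 also lost their calls with a pseudocount of 0.1 and with a filter at a mean of at least 20. Without the mean trend and in the fit of all 16 libraries all 3 lost their calls, and mt-Co1 did so with edgeR. The scaling bears on them too, since the median log2 difference of all genes was -0.40 with the authors' size factors and 0.01 after rescaling to equal total reads. That rescaling gave 4969 genes higher and 5758 lower in place of 3482 and 6920, 4 members were higher and 4 lower, and mt-Rnr2, mt-Nd4 and mt-Co1 lost their calls. mt-Atp6, a subunit of ATP synthase, had 1 and 0 reads in MC38 cells and 4 and 14 in skin. Its nuclear copy Gm10925 matches it over 678 bases with 0 mismatches, so these few reads are uncertain. mt-Atp6 averaged 0.428 normalized counts in MC38 cells and 11.6 in skin. It passed the filter on low values only through skin, so no test of it is given. Setting its call aside leaves 8 called members. That call was also lost with DESeq2 and without 3 of the 4 libraries, and without the second skin library the gene fell below the filter.

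**Figure D4:**
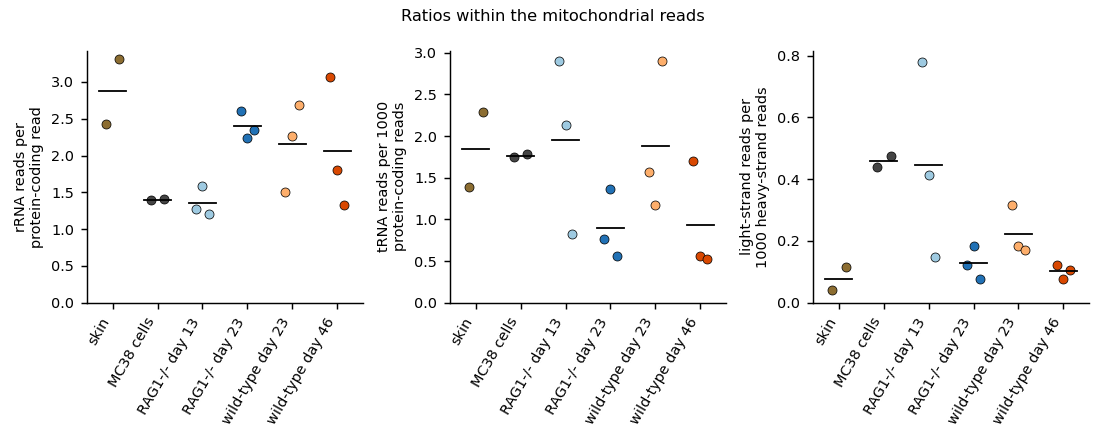
rRNA reads per protein-coding read, tRNA reads per 1000 protein-coding reads and light-strand reads per 1000 heavy-strand reads in each library, with lines at the group means. Skin and the RAG1-/- tumors of day 23 lie at 2.24 or more for the first ratio and MC38 cells and the RAG1-/- tumors of day 13 at 1.59 or less, and the lowest light-strand ratio, 0.0419, is in skin.

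Among the abundant members 1 was called between tumors and MC38 cells. The comparisons of both hosts with MC38 cells share the same 2 MC38 libraries. In wild-type tumors limma called 0 of 20 members higher and 4 lower, beside 18.3% of the 14708 genes tested higher and 9.61% lower. In RAG1-/- tumors it called 0 higher and 2 lower, beside 15.8% and 7.55%. mt-Tt is among the called members in both hosts although it passed the filter only through the MC38 cells, which leaves 3 called in wild-type and 1 in RAG1-/- tumors. mt-Nd1 was the abundant gene called, at 129044 and 111666 normalized counts in MC38 cells and 58049 to 102104 in wild-type tumors (log2 difference -0.63, SE 0.21, limma adjusted p = 0.035). That call was lost without either MC38 library and without the third wild-type tumor of day 23, where 2 members were called each time, and in the fits without a filter or with all 16 libraries (limma adjusted p between 0.0732 and 0.271 over these alternatives). With the replicate number as a block the call in wild-type tumors was lost too. In RAG1-/- tumors mt-Nd1 had 81277 to 112133 normalized counts (log2 difference -0.31, SE 0.21, limma adjusted p = 0.335). mt-Rnr2 had log2 differences from MC38 cells of 0.02 (SE 0.35, limma adjusted p = 0.974) in wild-type and 0.08 (SE 0.35, limma adjusted p = 0.907) in RAG1-/- tumors. The value for RAG1-/- tumors is a mean of days that lay on opposite sides of the cells. mt-Rnr2 was at most 296504 at day 13 and at least 639501 at day 23, against 396218 and 439734 in MC38 cells. mt-Rnr1 was at most 92305 at day 13 and at least 174868 at day 23, against 115213 and 124093. The days were not tested apart against MC38 cells.

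Against skin, limma called 1 of 20 members higher and 5 lower in wild-type tumors, beside 22.8% of the 16259 genes tested higher and 34.2% lower. Of these, mt-Tf and mt-Tt passed the filter only through the group where they are high, which leaves 4 called, all lower. mt-Nd4 had 41861 to 75976 normalized counts in wild-type tumors, below both skin libraries (log2 difference -0.83, SE 0.28, limma adjusted p = 0.021). mt-Nd1 and mt-Co1 had log2 differences of -0.67 (SE 0.26, limma adjusted p = 0.041) and -0.57 (SE 0.21, limma adjusted p = 0.035). These 3 calls were lost without either skin library and under rescaling to equal total reads, which gave 1 member higher and 2 lower. The call of mt-Nd1 was lost with a pseudocount of 0.1 and with the replicate number as a block. That of mt-Co1 was lost without a filter, with edgeR and without the mean trend. mt-Nd1 was also lost without the first and without the third wild-type tumor of day 23 and without the first and without the second of day 46, and mt-Co1 without the second of day 46 (limma adjusted p between 0.0510 and 0.178 over all these left-out libraries). That rescaling moved the median of all genes from -0.18 to 0.21 and the genes called from 3708 higher and 5554 lower to 5502 and 4173.

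The tRNA genes with the clearest values are shown with the anticodon in capitals, read from the GENCODE transcripts. mt-Tp, mt-Tq and mt-Ta carry proline, glutamine and alanine and are light-strand genes, and mt-Tt, mt-Ti, mt-Tm and mt-Tf carry threonine, isoleucine, methionine and phenylalanine and are heavy-strand genes. Which kind of RNA the reads on these genes came from was not tested. The strand setting of the counting is not given in the sources used here. Reads on a gene may therefore come from RNA of either strand, along its whole length. The same holds where genes overlap, as mt-Ti and mt-Tq do by 3 bases.
mt-Tp (GRCm38 chrM:15356-15422, minus strand): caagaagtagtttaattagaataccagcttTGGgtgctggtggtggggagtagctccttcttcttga
mt-Tq (GRCm38 chrM:3772-3842, minus strand): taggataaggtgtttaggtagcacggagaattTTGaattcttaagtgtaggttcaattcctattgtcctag
mt-Ta (GRCm38 chrM:5018-5086, minus strand): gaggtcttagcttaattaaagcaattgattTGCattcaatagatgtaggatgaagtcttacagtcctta
mt-Tt (GRCm38 chrM:15289-15355, plus strand): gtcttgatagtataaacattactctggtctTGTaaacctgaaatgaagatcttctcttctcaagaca
mt-Ti (GRCm38 chrM:3706-3774, plus strand): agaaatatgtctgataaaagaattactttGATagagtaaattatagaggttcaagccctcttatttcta
mt-Tm (GRCm38 chrM:3845-3913, plus strand): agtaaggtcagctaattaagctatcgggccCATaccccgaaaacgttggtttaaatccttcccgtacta
mt-Tf (GRCm38 chrM:1-68, plus strand): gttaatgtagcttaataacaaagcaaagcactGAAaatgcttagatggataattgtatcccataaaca

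mt-Tp was higher in the cultured cells than in any tumor. It measured 234 and 229 normalized counts in MC38 cells, 21.3 to 56.3 in wild-type tumors and 30.05 to 117 in RAG1-/- tumors, and 22.8 and 125 in skin. The log2 difference from MC38 cells was -2.66 (SE 0.40, limma adjusted p = 5.9e-05) in wild-type and -1.93 (SE 0.40, limma adjusted p = 0.0016) in RAG1-/- tumors, and neither call was lost under any of 20 alternatives. mt-Tt, its neighbour on the opposite strand, measured 39.4 and 52.8 in MC38 cells and 49.6 and 80.3 in skin, but at most 4.43 in wild-type and 12.2 in RAG1-/- tumors. Among RAG1-/- tumors it had 9.63, 12.2 and 4.76 at day 13 and 0, 0 and 2.21 at day 23. Averaging 1.72 in wild-type and 4.81 in RAG1-/- tumors, it passed the filter only through MC38 cells or skin, so no test of it is given, and it was not tested among the tumors.

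mt-Tq measured 136 and 149 normalized counts in MC38 cells and 12.1 and 20.4 in skin (log2 difference 3.10, SE 0.37, limma adjusted p = 0.0019), a call not lost under any of 16 alternatives. It was lower in wild-type tumors, at 15.4 to 62.7, than in MC38 cells (log2 difference -1.93, SE 0.62, limma adjusted p = 0.028), a call lost without either MC38 library, without the third wild-type tumor of day 23, without the second of day 46, without a filter and without the mean trend (limma adjusted p between 0.0501 and 0.181). RAG1-/- tumors spread from 24.7 to 208 and overlapped the cells. mt-Ti was highest in skin, at 115 and 163 normalized counts against 12.8 and 19.6 in MC38 cells (log2 difference -3.03, SE 0.38, limma adjusted p = 0.0021) and 0.63 to 47.5 in wild-type tumors (-4.10, SE 0.89, limma adjusted p = 0.0013). The difference from MC38 cells was lost without either skin library (limma adjusted p = 0.060 and 0.068), and that from wild-type tumors with none of the 8 libraries left out in turn. mt-Tm, the most read tRNA gene with 2657 reads in all, measured 265 and 377 in skin and 141 and 124 in MC38 cells (-1.25, SE 0.25, limma adjusted p = 0.010). That call was lost without the second MC38 library, without the second skin library and in the fit of all 16 libraries (limma adjusted p = 0.058, 0.068 and 0.164). Wild-type tumors overlapped both, at 45.0 to 398.

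mt-Tf, the first gene of the heavy-strand transcript, had 0 and 1 reads in the 2 skin libraries and 6 to 18 in each of the 6 wild-type tumors. It averaged 0.637 normalized counts in skin and passed the filter only through the tumors, so no test is given. mt-Ta measured 93.7, 95.5 and 41.2 normalized counts in wild-type tumors at day 23 and 27.4, 6.71 and 1.88 at day 46, without overlap (log2 difference -3.08, SE 0.82, limma adjusted p = 0.385). RAG1-/- tumors spread from 13.3 to 132 for mt-Ta and overlapped both of these groups.

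**Figure D5:**
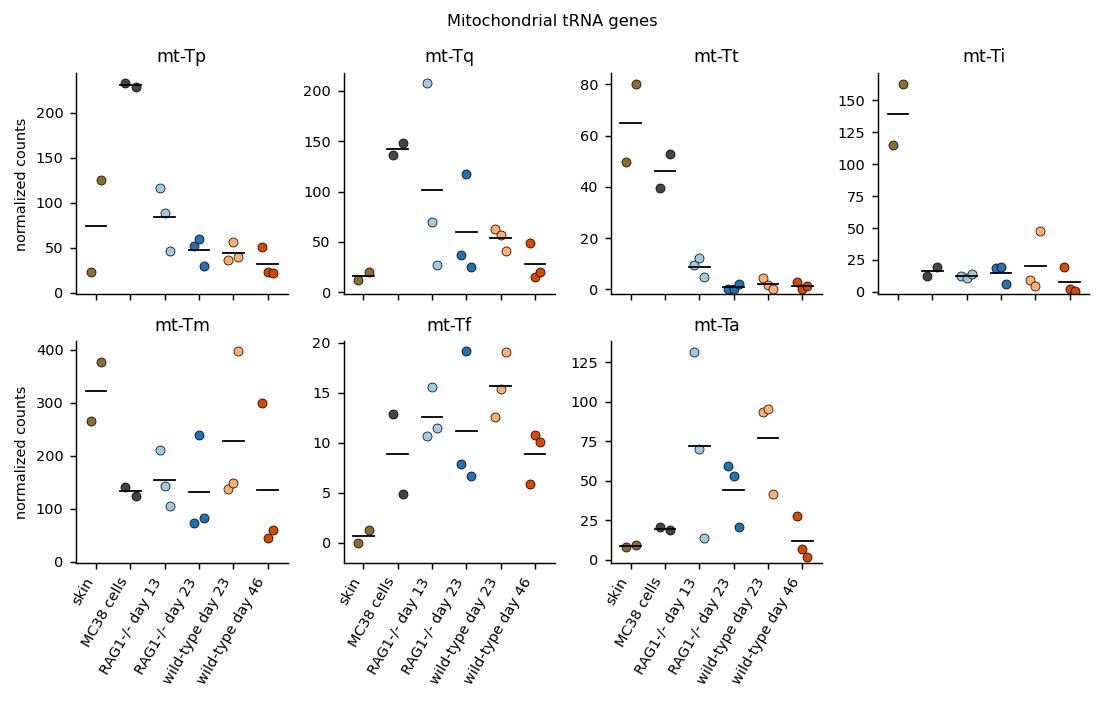
Normalized counts of 7 mitochondrial tRNA genes, with 1 point per library and a line at each group mean. Both MC38 libraries lie above all tumors for mt-Tp and mt-Tt, both skin libraries lie above all others for mt-Ti, and mt-Tf is at or below 1.27 in skin alone.

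Light-strand genes gave 0.0419 to 0.778 reads per 1000 heavy-strand reads. Here a light-strand read is any read counted on a light-strand gene. Because the strand setting is not given, such a read may come from RNA of either strand. These ratios rest on 41 to 490 light-strand reads per library. In the MC38 libraries mt-Tp held 273 of 490 and 234 of 434 of them, and mt-Tq 159 and 152. mt-Nd6, the light-strand protein gene, averaged 24.0 normalized counts in MC38 cells and 23.2 in skin (log2 difference 0.21, SE 0.59, limma adjusted p = 0.777). The strand ratio was 0.440 and 0.476 in MC38 cells, 0.0419 and 0.115 in skin and 0.0768 to 0.316 in wild-type tumors. All 6 wild-type tumors were below both MC38 libraries (adjusted p = 0.593; the exact permutation p of 0.0357 is the lowest possible with 6 and 2 libraries). All 3 wild-type tumors of day 46 were also below all 3 of day 23 (exact permutation p = 0.1, adjusted p = 0.593). RAG1-/- tumors overlapped the MC38 cells, at 0.778, 0.412 and 0.148 on day 13 and 0.123, 0.185 and 0.0754 on day 23. None of the 32 comparisons of shares and ratios passed after adjustment.

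Within the protein-coding reads, mt-Cytb took 25.4% to 41.4% and mt-Nd1 24.0% to 34.7%. mt-Nd4 took 25.8% and 23.9% in skin and 12.5% to 19.9% in every other library. mt-Nd2 took 6.68% to 17.8% and mt-Nd5 2.89% to 5.24%. The number of mt-Rnr2 reads per mt-Rnr1 read lay between 2.34 and 3.82.

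Of 39 nuclear genes that maintain and express the mitochondrial genome, limma called 0 of the 38 tested in each of the 4 comparisons among tumors, with 4 or 5 at an unadjusted p under 0.05 (10.5% to 13.2% of the list, beside 8.55% to 11.7% of all genes). edgeR and DESeq2 were not summarized for this list. Between the RAG1-/- tumors of day 23 and day 13, Tfam, which packages mitochondrial DNA and helps to start its transcription, averaged 1028 and 943 normalized counts (log2 difference 0.10, SE 0.19, limma adjusted p = 0.888). Polrmt, the mitochondrial RNA polymerase, averaged 283 and 238 (log2 difference 0.26, SE 0.19, limma adjusted p = 0.646). The lowest p in each direction belonged to Lrpprc, which stabilizes mitochondrial mRNAs (log2 difference -0.68, SE 0.19, limma adjusted p = 0.211), and the transcriptional coactivator Pprc1 (0.45, SE 0.18, limma adjusted p = 0.349). Of the mitochondrial ribosomal proteins 0 of 76 and of the nuclear respiratory chain subunits 0 of 83 were called between these days, with 10 and 11 at an unadjusted p under 0.05 (13.2% and 13.3%, beside 11.7% of all genes).

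In MC38 cells against skin, 17 of the 39 genes were higher and 3 lower (43.6% and 7.69%, beside 20.8% and 41.2% of all genes). The higher ones included Tbrg4 (log2 difference 2.38, SE 0.18, limma adjusted p = 0.00049) and Fastkd3 (2.32, SE 0.17, limma adjusted p = 0.00044), both of the FASTK family of mitochondrial RNA-binding proteins, and Tfam (0.75, SE 0.14, limma adjusted p = 0.0082). The lower ones included Ppargc1a, a coactivator of mitochondrial biogenesis, at means of 14.97 normalized counts in MC38 cells and 196 in skin (-3.62, SE 0.29, limma adjusted p = 0.00058). Mitochondrial ribosomal proteins were higher for 36 and lower for 5 of 76, and nuclear respiratory chain subunits higher for 7 and lower for 28 of 84. These are 47.4% and 6.58% of the ribosomal proteins and 8.33% and 33.3% of the respiratory chain subunits, so that the latter were not lower more often than the 41.2% of all genes. Against MC38 cells, wild-type tumors had 0 of 38 maintenance and expression genes higher and 6 lower, and RAG1-/- tumors 1 higher and 5 lower. These are 0% and 15.8% of the list in wild-type tumors, beside 18.3% and 9.61% of all genes, and 2.63% and 13.2% in RAG1-/- tumors, beside 15.8% and 7.55%. Lrpprc was lower in both hosts, by log2 differences of -1.41 (SE 0.18, limma adjusted p = 7.1e-06) and -1.33 (SE 0.18, limma adjusted p = 1.5e-05). Against skin, wild-type tumors had 13 of 39 higher and 6 lower (33.3% and 15.4%, beside 22.8% and 34.2% of all genes), and Ppargc1a averaged 0.863 normalized counts there.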

How the data were processed

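RNA of 16 libraries was analysed. The authors trimmed reads with Cutadapt and Trimmomatic, aligned them to mm10 with STAR and then Bowtie2, kept the primary alignment of reads with several positions, removed reads at ribosomal RNA locations, counted with HTSeq and deposited DESeq2-normalized counts (a signal, not raw counts). mt-Rnr2 and mt-Rnr1 rank 1 and 2 of 46882 genes by summed reads, so reads on the mitochondrial rRNA genes were not removed as a whole. The tool versions and strand setting are not given in the sources used here. Whole reads were recovered for 100% of values (tolerance 0.01). All mt- genes could be named, and nuclear genes by lowest adjusted p. The members and lists were chosen with earlier results of these data known.

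The main test was limma 3.58.1 (R 4.3.3) with a mean trend on log2(normalized count + 1), after leaving out genes that averaged under 5 normalized counts, with Benjamini-Hochberg adjustment over all genes and a threshold of 0.05. MC38 cells against skin was fitted on those 4 libraries, comparisons among tumors on the 12 tumors, and tumors against MC38 cells or skin on the tumors and those libraries. Shares and ratios were compared by two-sided exact permutation tests (scipy 1.17.1). edgeR 4.0.16 and DESeq2 1.42.0 on the recovered reads were alternatives, with other scalings, filters and pseudocounts, a replicate block and each library left out. Scripts were tested on simulated data. Nuclear copies were searched with BLAST+ 2.17.0 after the values were seen. A further 6 columns of an antibody-treatment table matched no sample uniquely and were not used.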

Additional observations from a re-analysis of the deposited data

Results flagged for a closer look

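One value stood apart from its group. mt-Nd6 measured 21.5 normalized counts in the second wild-type tumor of day 46, where the other wild-type tumors lay between 17.7 and 19.0, and the gap was 0.653 of the range of the 6 tumors, above Dixon's 95% critical value. It was 1 of 46 groups of 6 libraries examined, and chance flags about 1 in 20 such groups. The flagged value rests on 32 reads and those of the other wild-type tumors on 12 to 29, and Dixon's rule takes no account of counting error.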

How the results depend on the processing

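Members called in MC38 cells against skin went from 9 to 5 with a mean of at least 20, to 4 with all 16 libraries in a single fit and to 3 with any library left out. In RAG1-/- tumors between days they went from 0 to 4 with DESeq2. In wild-type tumors against MC38 cells they went from 4 to 2 without a filter, and to between 2 and 4 with a library left out. In RAG1-/- tumors against MC38 cells they went from 2 to 1 with a pseudocount of 0.1 and to 1 with a mean of at least 20, and to between 1 and 3 with a library left out. In wild-type tumors against skin they went from 6 to 3 with equal totals, to 3 with equal upper quartiles and to 3 with equal reads outside the mitochondrial genes (chosen after seeing the data), and to between 3 and 7 with a library left out. The cause was not tested. No called member changed direction.

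None of the shares and ratios that changed sign had passed. Log2 differences in share became 0.41 for MC38 cells against skin and 0.043 between days of wild-type tumors with protein-coding genes only, and RAG1-/- tumors against MC38 cells gave 0.19 percentage points on a linear scale. With a library left out they ranged from -0.17 to 0.035 between hosts over both days, from -0.25 to 0.21 between days of wild-type tumors and from -0.13 to 0.070 for RAG1-/- tumors against MC38 cells. Averaging log2 values over members gave 0.041 for rRNA to protein-coding between days of wild-type tumors, 0.32 for tRNA to protein-coding in MC38 cells against skin and -0.013 for light to heavy strand between hosts at day 23. With a library left out, rRNA to protein-coding ranged from -0.38 to 0.042 between hosts at day 23 and from -0.44 to 0.17 between days of wild-type tumors, and tRNA to protein-coding from -0.38 to 0.34 in MC38 cells against skin and from -0.29 to 0.23 between hosts over both days.

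The replicate numbers were not treated as pairs, since 4 of 18 same-numbered pairs of tumors correlated above 0.1 (range -0.24 to 0.25) and 5 of the 6 pairs of groups did not have all 3 above it. In the other one, wild-type day 46 with RAG1-/- day 23, the 3 correlations were 0.105 to 0.208, against -0.159 to 0.017 between different numbers, and each tumor correlated best with its own number. These groups meet only in the comparison of hosts over both days. With the replicate number as a block, 10 members were called in MC38 cells against skin, 0 in each comparison among tumors, 3 in each host against MC38 cells and 6 in wild-type tumors against skin. Several tRNA genes and mt-Nd6 rest on few reads, and each side of a comparison on 2 to 6 libraries.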
